A study of Mus musculus with 30 samples.

Results

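The genes described here are the mouse semaphorins, plexins and neuropilins, a family of guidance cues and their receptors. The set holds 31 genes of the 38720 listed in both deposited RNA-seq tables, namely 20 semaphorins, 9 plexins and 2 neuropilins. They were taken by symbol as a gene family, and no measured value decided which genes entered, though earlier results of these data were known. All 31 passed the filter on low values, a mean of at least 10 normalised counts, in both comparisons.

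RNA was measured in newborn (P0) retina, in ganglion cells pulled out with magnetic beads against CD90 (the product of Thy1) and in the retinal cells that the beads left behind. Each group analysed here had 3 libraries. The wild-type (WT) retinal ganglion cell (RGC) group came from C57BL/6 pups. The tables call the other groups mutant RGC and mutant non-RGC. The labels list mutant pups of 2 kinds, Math5Cre; Ezh2 f/f (sKO) and Math5Cre; Ezh2 f/f G9a f/+ (dKO), and the tables do not say which of them their mutant is. In either case Cre expressed under the control of Math5 removes Ezh2, the methyltransferase that places the repressive mark H3K27me3. In dKO pups it also removes 1 allele of G9a (Ehmt2), a methyltransferase for H3K9. Math5 (Atoh7) switches on in progenitors that form ganglion cells and some other retinal neurons, so only descendants of those cells lose the alleles. The WT mice are described with neither Cre nor floxed alleles, so Cre, the floxed alleles and the strain background cannot be told apart from loss of Ezh2. The labels do not say whether libraries of a group came from separate pups, so a p-value here reflects only how much the libraries vary, which may be technical. WT non-RGC libraries and the H3K27me3 ChIP samples that the labels also list were not analysed here.

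Semaphorins are secreted or membrane-bound proteins that steer axons, dendrites and vessels, mostly by repulsion, and plexins are the receptors that carry the signal into the cell. Secreted class 3 semaphorins usually need a neuropilin as the binding partner of an A-type plexin, whereas membrane-bound classes bind plexins directly. In the retina and optic pathway, Sema5a and Sema5b keep neurites inside the inner retina through plexins A1 and A3. Sema6a sorts the layers of the inner plexiform layer with plexins A4 and A2. Sema6d at the optic chiasm guides crossing ganglion cell axons, and Sema3e from ganglion cells acts on plexin D1 of growing vessels.

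The 9 libraries held between 10499461 and 12242207 reads, recovered per library from the deposited group means. The deposited group mean is the mean of 3 libraries, each count divided by a size factor that corrects for depth. Levels below are normalised read counts on 1 scale over the 9 libraries, numbered 1 to 3 within a group. Each table was normalised separately by the authors, so every fold change and test was made within its own table. Levels are not per transcript length and are compared only between libraries of 1 gene.

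Summed levels of ganglion cell, proliferation, and progenitor and glial markers were separated between groups in both comparisons. Those of the other lists were separated in 1 comparison or in neither. The summed level of 20 ganglion cell markers ran from 44230.4 to 53057 in WT RGC, from 20524 to 34298 in mutant RGC and from 5319 to 11979 in mutant non-RGC. The summed level of 20 proliferation genes ran from 16679 to 28334, from 37129 to 38462 and from 44442 to 45970.2 in the same order. WT library 3 had the lowest ganglion sum and the highest proliferation sum of its group. Mutant RGC library 1 had the lowest ganglion sum (20524) of its group, and the highest microglial (10755) and endothelial and pericyte (11033) sums. In single genes, 9 of 20 ganglion markers fell and 19 of 20 proliferation genes rose in mutant RGC. Of all genes tested there, 12.3% were lower and 13.7% higher, the shares to set beside each count of markers in mutant RGC. In mutant non-RGC against mutant RGC, 14 of 20 ganglion markers fell and 11 of 20 proliferation genes rose. Of all genes tested between these fractions, 12% were lower and 5.07% higher. Microglial sums were 4611 to 6737, 2880.3 to 10755 and 218 to 283, and all 16 microglial genes fell in mutant non-RGC. Endothelial and pericyte sums were 4345 to 6077, 5664 to 11033 and 6366 to 7035. Photoreceptor sums were 11114 to 15041, 15917 to 23811 and 17896 to 24437, with 7 of 18 genes higher and 0 lower in mutant RGC. Progenitor and glial sums were 24759 to 35817, 38264 to 41658 and 43611 to 45133, with 7 of 20 genes higher in mutant RGC. Amacrine and horizontal cell sums were 15271 to 16806, 19386 to 22192 and 18662 to 21644, with 9 of 19 genes higher and 2 lower in mutant RGC. None of the markers of these lists was at 0 in all 9 libraries. The part of these shifts in the results below was not tested. In bulk RNA, fewer cells of a type and less RNA per cell cannot be told apart. Thy1 itself was at 2322, 2443 and 2074 in WT RGC, at 964, 1501 and 1425 in mutant RGC and at 209, 351 and 10.3 in mutant non-RGC. Ezh2 was at 1154, 1169.7 and 1576 in WT RGC against 1961, 1863 and 1812 in mutant RGC. The whole-gene count was thus higher in the group labelled mutant (log2 fold change 0.58, SE 0.13, limma adjusted p = 0.0292). In mutant non-RGC, Ezh2 was at 2232, 2158 and 2330, higher again (log2 fold change 0.25, SE 0.06, limma adjusted p = 0.0242). Ehmt2 was at 3744, 3604 and 3858 in WT RGC against 2364, 2799 and 2962, lower in every mutant RGC library (log2 fold change -0.43, SE 0.11, limma adjusted p = 0.0331). In mutant non-RGC, Ehmt2 was at 2984, 3248 and 2746, not called against mutant RGC (limma adjusted p = 0.402). Counts over whole genes cannot show whether floxed exons were lost, and no genotype was assigned from these values.

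**Figure D1:**
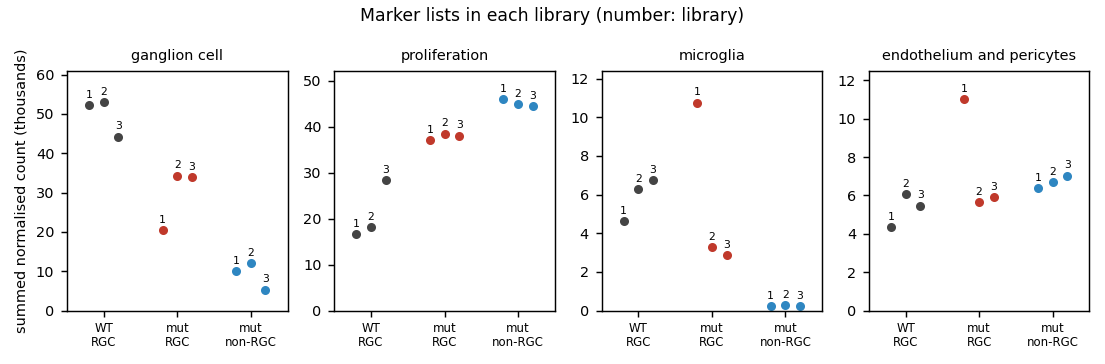
Summed normalised read counts (y axis) of the ganglion cell, proliferation, microglial and endothelial lists by group (x axis), with 1 numbered point per library. The ganglion cell sum lies between 44230.4 and 53057 in WT RGC and between 5319 and 11979 in mutant non-RGC, the proliferation sum runs the other way, and mutant RGC library 1 stands apart with 10755 for microglia and 11033 for endothelium and pericytes.

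The first comparison set mutant RGC against WT RGC and addressed how these genes differ between bead-bound cells of mutant and WT pups. Loss of Ezh2, Cre, the floxed alleles and the strain background cannot be told apart in that difference. In mutant RGC 5 of the 31 genes were higher and 9 were lower at an adjusted p under 0.05 (limma, Benjamini-Hochberg over 15268 genes). Of all genes tested 13.7% were higher and 12.3% lower. The median log2 fold change was -0.42 over the 31 genes and 0.00 over all genes tested. The share of higher members was near the background and that of lower members above it, with no test of that difference. The higher genes were Sema4d, Sema5a, Sema5b, Plxna4 and Plxnb2, and the lower ones Sema4a, Sema4f, Sema4g, Sema6a, Sema6b, Sema6c, Sema7a, Plxna3 and Nrp2. The libraries of the groups did not overlap for 5 genes that were higher and 12 that were lower, where 26.2% and 24.9% of all genes were separated in that way. The authors' deposited table called 4 of the 31 genes higher and 10 lower (5.45% and 6.48% of the genes it tested), and 13 of these were also called here.

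**Figure D2:**
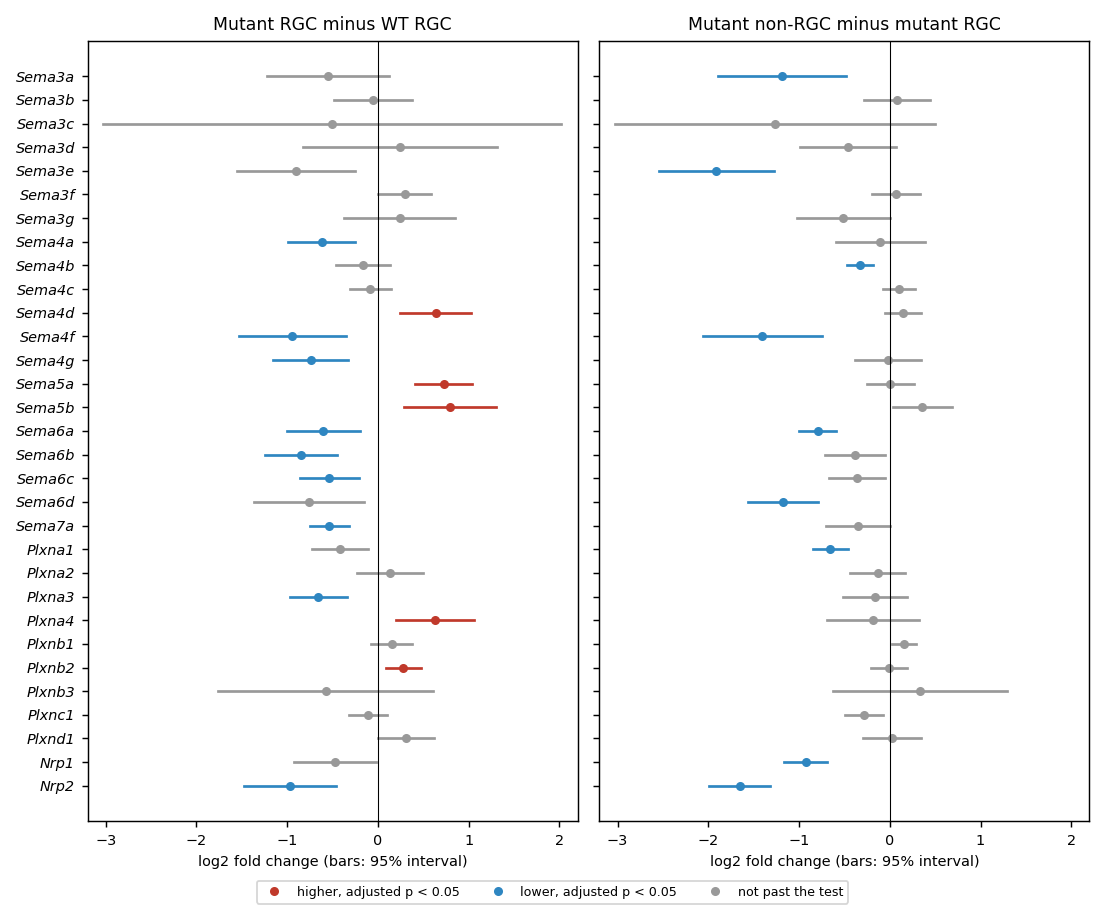
Log2 fold change of each of the 31 genes with its 95% confidence interval, for mutant RGC against WT RGC and for mutant non-RGC against mutant RGC, with genes past the test in red (higher) or blue (lower) and the others in grey. The left panel has 5 red and 9 blue genes, and the right one 0 red and 9 blue.

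Upstream sequences are shown for 4 of the genes described below, picked by hand as examples. Shown are the 250 bases before the first annotated RefSeq base of Nrp2 (chr1:62703067-62703316, plus strand), Sema3e (chr5:14025026-14025275, plus strand) and Sema4f (chr6:82939770-82940019, minus strand), whose libraries ran downward from WT RGC through mutant RGC to mutant non-RGC without overlap. The same is shown for Sema5a (chr15:32244563-32244812, plus strand), which rose in mutant RGC. Coordinates are those of GRCm38.p6, the assembly of mm10, and each sequence reads 5′ to 3′ on the strand of its gene. Capitals mark GGGCGG (a GC box) on either strand, which reads CCGCCC on the reverse one, and ATTAAT, with neighbouring matches allowed to overlap.
Nrp2: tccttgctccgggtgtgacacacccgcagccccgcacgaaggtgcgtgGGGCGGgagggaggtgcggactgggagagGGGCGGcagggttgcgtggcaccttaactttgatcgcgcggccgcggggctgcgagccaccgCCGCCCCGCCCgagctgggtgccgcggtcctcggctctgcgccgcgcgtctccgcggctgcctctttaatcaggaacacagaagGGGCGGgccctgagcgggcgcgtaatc
Sema3e: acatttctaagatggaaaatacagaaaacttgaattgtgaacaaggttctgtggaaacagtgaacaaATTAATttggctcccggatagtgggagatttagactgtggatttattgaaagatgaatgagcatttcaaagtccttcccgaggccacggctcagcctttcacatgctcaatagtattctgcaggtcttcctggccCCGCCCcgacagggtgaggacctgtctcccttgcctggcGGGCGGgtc
Sema4f: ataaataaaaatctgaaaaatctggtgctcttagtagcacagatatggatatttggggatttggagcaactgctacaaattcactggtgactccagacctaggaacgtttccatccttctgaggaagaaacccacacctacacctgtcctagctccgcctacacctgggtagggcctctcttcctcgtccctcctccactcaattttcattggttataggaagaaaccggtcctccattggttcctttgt
Sema5a: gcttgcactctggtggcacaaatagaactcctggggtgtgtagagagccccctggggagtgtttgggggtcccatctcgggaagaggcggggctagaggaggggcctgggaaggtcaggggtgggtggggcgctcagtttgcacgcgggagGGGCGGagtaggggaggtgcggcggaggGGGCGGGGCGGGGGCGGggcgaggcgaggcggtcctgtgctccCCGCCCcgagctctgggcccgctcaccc
The Nrp2 window had 72.4% G and C, with 32 CG dinucleotides and 5 matches to GGGCGG. The Sema5a window had 72.0%, with 17 CG and 5 matches. Sema3e had 48.0%, 7 CG, 2 matches to GGGCGG and the 1 match to ATTAAT found in the set. Sema4f had 46.0%, 4 CG and no match to either motif. The 3 printed genes with a downward order had both CG-rich and CG-poor windows, but they were picked and stand for no larger group. Among other genes with that order on the 9-library scale, Sema6c had windows with 15 and 0 CG and Sema6d with 9 and 6. The medians over all 32851 windows before RefSeq transcript starts were 52.4% and 6 CG. GGGCGG was found in 32.7% of those windows and ATTAAT in 4.39%. Over the 31 genes, 26 had at least 1 window, 37 windows in all, and 27 of the 37 held GGGCGG. These matches describe the letters only.

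Both class 5 semaphorins, transmembrane cues with thrombospondin repeats, rose, where 13.7% of all genes were called higher. Sema5a, whose GC-rich upstream window is printed above, was at 1253, 1500.2 and 1496 in WT RGC and at 2781, 2108 and 2013 in mutant RGC. Every mutant library lay above every WT library (log2 fold change 0.72, SE 0.13, limma adjusted p = 0.0244). Sema5b was at 827, 874 and 1349 in WT RGC and at 2079, 1478 and 1543 in mutant RGC. Its groups did not overlap either, with WT library 3 closest to the mutants, and its log2 fold change was 0.79 (SE 0.21, limma adjusted p = 0.0391).

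Class 4 semaphorins are membrane-bound ligands that mostly signal through B-type plexins. Of 6 measured, 1 rose and 3 fell, beside 13.7% and 12.3% of all genes. Sema4d, the classic plexin B1 ligand, was at 1301, 1269.7 and 1899 in WT RGC and at 2094, 2318 and 2257 in mutant RGC. It rose by 0.64 on the log2 scale (SE 0.16, limma adjusted p = 0.0369), with WT library 3 again the highest of its group. Sema4a, needed for photoreceptor upkeep in the adult, was at 812, 704 and 713 against 381, 533 and 513. Its log2 fold change was -0.62 (SE 0.16, limma adjusted p = 0.0351) and the groups did not overlap. Sema4f, a neuronal member of the class, was at 758, 616 and 517 in WT RGC and at 226, 353 and 396 in mutant RGC (log2 fold change -0.94, SE 0.25, limma adjusted p = 0.0383). Sema4g was at 3316, 3099 and 2778 against 1388, 1972 and 2076 (log2 fold change -0.74, SE 0.17, limma adjusted p = 0.0308). Mutant RGC library 1 had the lowest level of Sema4a, Sema4f and Sema4g among the mutant libraries. Sema4b and Sema4c gave log2 fold changes of -0.16 and -0.09 and were not called.

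Class 6 semaphorins are transmembrane proteins that act both as ligands and as receptors for A-type plexins. All 4 had WT and mutant libraries that did not overlap, each lower in the mutant, and 3 were called. Of all genes, 24.9% were separated in that direction and 12.3% called lower. Sema6a was at 5246, 5322 and 3623 in WT RGC and at 2665, 3129 and 3238 in mutant RGC (log2 fold change -0.60, SE 0.17, limma adjusted p = 0.0439). WT library 3 lay nearest to the mutants and far below the other WT libraries. Sema6b was at 1519, 1447 and 1159.5 against 604, 799 and 846 (log2 fold change -0.84, SE 0.17, limma adjusted p = 0.0257). Sema6c was at 2581, 2240.4 and 2106 against 1323, 1612 and 1749 (log2 fold change -0.53, SE 0.13, limma adjusted p = 0.0355). For both, the lowest WT library lay well above the highest mutant one. Sema6d was at 865, 896 and 458 against 385, 407 and 431, with a log2 fold change of -0.76 (SE 0.25, adjusted p = 0.0640 by limma) that did not pass the threshold. WT library 3 of Sema6d lay close to the mutants and far from the other WT libraries. Sema7a, the lipid-anchored semaphorin that binds plexin C1 and integrins, was at 1261, 1319 and 1085 in WT RGC and at 876, 774 and 814 in mutant RGC. It had the lowest p of the 31 genes in this comparison, with a log2 fold change of -0.53 (SE 0.09, adjusted p = 0.0238 by limma).

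No class 3 semaphorin, of 7 measured, was called in mutant RGC by limma with the filter and scaling used for the calls above. At an unadjusted p under 0.05, 1 was lower and 0 higher, and 1 was lower both with voom weights and in the authors' deposited table. That gene was Sema3e in every case. Sema3e was at 1291, 1214 and 802 in WT RGC and at 396, 707 and 638 in mutant RGC, so the groups did not overlap. Its log2 fold change was -0.90 (SE 0.27, limma adjusted p = 0.0519), and the authors' deposited table gave an adjusted p of 0.0359. Sema3a, the collapse factor for axons bearing neuropilin-1, was at 960.3, 1071 and 685 against 398, 728 and 720.3. Those groups overlapped, and its log2 fold change of -0.55 (SE 0.28) had a limma adjusted p of 0.178. Sema3f, the ligand that prefers neuropilin-2, was at 1344, 1319 and 1589 against 2019.5, 1485 and 1609, with a limma adjusted p of 0.113. Sema3b, Sema3c, Sema3d and Sema3g had group means from 45.2 to 119 in WT RGC and from 46.4 to 112 in mutant RGC. Sema3c varied most within groups, at 73.7, 238 and 14.2 in WT RGC and at 116, 19.6 and 36.0 in mutant RGC, and the interval of its log2 fold change ran from -3.03 to 2.02.

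The receptors did not move as a block. Among the A-type plexins, which carry class 3 and class 6 signals, Plxna4 was at 296, 404 and 267 in WT RGC and at 428, 541 and 475 in mutant RGC. It rose by 0.63 on the log2 scale (SE 0.18, limma adjusted p = 0.0456). Plxna3 went the other way, at 2699, 2295 and 2158 against 1279, 1499.9 and 1652 (log2 fold change -0.66, SE 0.13, limma adjusted p = 0.0259). Neither gene had overlapping groups. Plxna1 was at 5259, 5679 and 4201 against 3342, 3847 and 3821. Its libraries were also separated, but a log2 fold change of -0.42 (SE 0.13, adjusted p = 0.0546 by limma) missed the threshold. Plxna2 was not called (log2 fold change 0.13, interval -0.23 to 0.50). Among the B-type plexins, receptors of class 4 ligands, Plxnb2 was at 3826, 3776 and 4058 against 5179.7, 4281 and 4387, the smallest called difference of the set (log2 fold change 0.28, SE 0.08, limma adjusted p = 0.0473). The authors' deposited table did not call Plxnb2 (adjusted p = 0.2747). Plxnb1, Plxnb3, Plxnc1 and Plxnd1 were not called, with log2 fold changes of 0.15, -0.58, -0.11 and 0.31.

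Nrp2, the neuropilin that binds Sema3f and VEGF-C, showed the largest called fall of the 31 genes in mutant RGC. It was at 1639.5, 1816 and 1003 in WT RGC and at 693, 732 and 731 in mutant RGC. The 3 mutant libraries lay close together below all WT libraries, of which library 3 was the lowest, and the log2 fold change was -0.97 (SE 0.21, limma adjusted p = 0.0287). Nrp1, the Sema3a and VEGF-A co-receptor, was at 1812, 1905 and 1172 against 1276, 1081 and 1022. WT library 3 fell inside the mutant range, and the log2 fold change of -0.47 (SE 0.19, adjusted p = 0.0988 by limma) was not called.

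**Figure D3:**
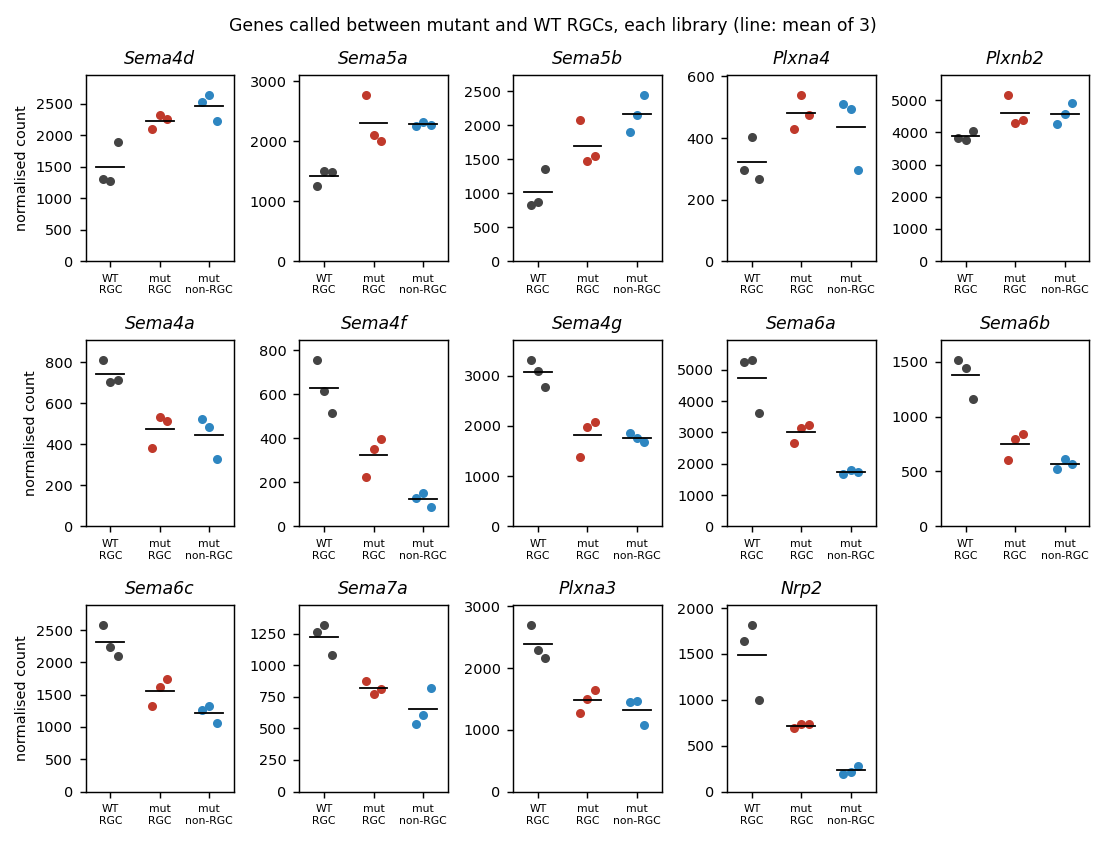
Normalised read counts (y axis, from 0) of the 14 genes called in mutant RGC against WT RGC, by group (x axis), with 1 point per library and a line at the mean of 3. Sema5a lies between 2013 and 2781 in mutant RGC, above the 1253 to 1500.2 of WT RGC, and Nrp2 between 693 and 732, below the 1003 to 1816 of WT RGC.

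WT library 3 was the lowest WT library for 8 of the 9 lower genes, and mutant RGC library 1 the lowest mutant library for 8 of the 9. Without WT library 3, 6 members were higher and 14 lower, beside 22.1% and 20.2% of all genes. Sema3e, Sema4b, Sema6d, Plxna1 and Nrp1 then joined the lower genes and Plxnb1 and Plxnd1 the higher ones, while Plxna4 was lost (limma adjusted p = 0.0678). Without mutant RGC library 1, 1 was higher (Sema5a) and 6 were lower, beside 7.31% and 7.68% of all genes. Without WT library 1, WT library 2, mutant RGC library 2 or mutant RGC library 3, 0 of the 31 genes were called by limma, and between 3 and 9 genes in all. The 14 genes then had limma adjusted p values from 0.0670 to 0.158, with 5 or 6 higher and 9 to 12 lower members at an unadjusted p under 0.05. All 14 kept their direction in each of the 6 fits with a library left out.

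The second comparison set mutant non-RGC against mutant RGC and addressed which of these genes the bead-bound fraction holds at a higher level. It shares the mutant RGC libraries with the first. Of the 31 genes, 0 were higher and 9 lower in mutant non-RGC (limma, adjusted p under 0.05 over 15179 genes), beside 5.07% and 12% of all genes. At an unadjusted p under 0.05, 2 were higher and 12 lower (12.6% and 19.2% of all genes), and with voom weights 0 and 8 (4.45% and 10%). Over all genes 770 were higher and 1822 lower, a split that became 1471 and 1601 under total-count scaling and 448 and 1846 in a fit of all 9 libraries. Under total-count scaling 1 member was called higher, Plxnb1 (log2 fold change 0.22), beside the same number of lower members. The median log2 fold change was -0.29 over the 31 genes and 0.01 over all genes tested. The groups did not overlap for 1 higher gene and 11 lower ones, where 17.1% and 20.6% of all genes were separated. The authors' deposited table called 0 higher and 8 lower (1.17% and 5.31% of the genes it tested), all 8 of them called here too.

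Both neuropilins were lower in the unbound cells. Nrp2 was at 693, 732 and 731 in mutant RGC and at 191, 218 and 283 in mutant non-RGC (log2 fold change -1.65, SE 0.14, limma adjusted p = 0.0042). Nrp1 was at 1276, 1081 and 1022 against 531, 617 and 627 (log2 fold change -0.93, SE 0.10, limma adjusted p = 0.0062). No library of either group came near the other group. Nrp1 is also made by endothelial cells and microglia, and the microglial sum went from at least 2880.3 to at most 283 beside it. The endothelial and pericyte sums given above overlapped between the fractions, while 14 of the 16 genes tested had a log2 fold change below 0 in mutant non-RGC (median -1.11). The part of those cells in the difference was not tested.

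Of the class 3 ligands, Sema3e and Sema3a were lower. Sema3e was at 396, 707 and 638 in mutant RGC and at 156, 189.8 and 112 in mutant non-RGC, the widest called difference of the set (log2 fold change -1.91, SE 0.27, limma adjusted p = 0.0088). Sema3a was at 398, 728 and 720.3 against 291, 327 and 183 (log2 fold change -1.19, SE 0.30, limma adjusted p = 0.0367). In both, mutant RGC library 1 was the lowest of its group and lay nearest to the unbound cells. Sema3a was not called with voom weights (limma adjusted p = 0.0554), and it stayed called in 1 of 6 fits with a library left out, the one without mutant RGC library 1. In the other 5, without mutant RGC library 2 or 3 or any 1 of the mutant non-RGC libraries, its limma adjusted p lay between 0.0581 and 0.125.

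Among the membrane-bound ligands, Sema4f was at 226, 353 and 396 in mutant RGC and at 128, 152 and 86.4 in mutant non-RGC (log2 fold change -1.40, SE 0.28, limma adjusted p = 0.0180). Sema6d was at 385, 407 and 431 against 170.2, 228 and 150.1 (log2 fold change -1.18, SE 0.16, limma adjusted p = 0.0086). Sema6a was at 2665, 3129 and 3238 against 1682, 1784 and 1723 (log2 fold change -0.80, SE 0.09, limma adjusted p = 0.0062). All 3 had separated groups, and the unbound Sema6a libraries lay close together. Sema4b showed a small difference, at 903, 861 and 895 against 685, 708 and 727 (log2 fold change -0.33, SE 0.06, limma adjusted p = 0.0164). The authors' deposited table did not call Sema4b (adjusted p = 0.2257). The receptor Plxna1, which serves Sema6d at the chiasm, was at 3342, 3847 and 3821 against 2279, 2488 and 2221 (log2 fold change -0.66, SE 0.08, limma adjusted p = 0.0071). Sema3e, Sema6a, Sema6d, Plxna1, Nrp1 and Nrp2 were called in each of the 6 fits with a library left out. Sema4f lost its call without mutant RGC library 2, mutant RGC library 3 or mutant non-RGC library 1, with limma adjusted p values of 0.0726, 0.0689 and 0.0668. Sema4b lost its call in those same 3 fits (0.0695, 0.0844 and 0.0699 by limma) and without mutant non-RGC library 2 (0.0545). Without mutant RGC library 1, Sema5b and Plxnb1 were called higher and Sema6b, Sema6c and Plxnc1 lower, which gave 2 higher and 12 lower members, beside 6.39% and 15.7% of all genes.

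**Figure D4:**
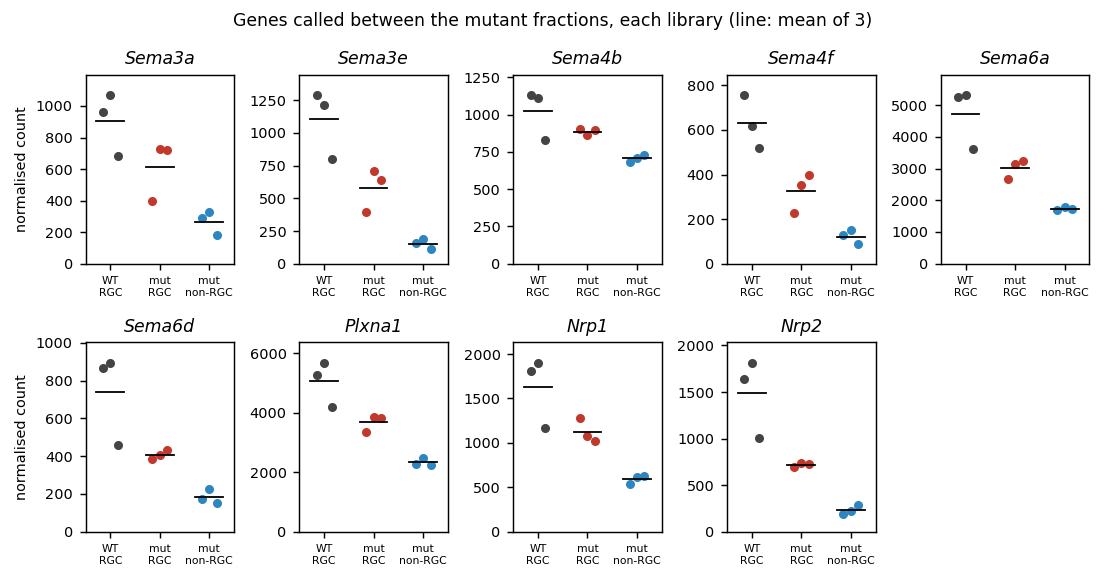
Normalised read counts (y axis, from 0) of the 9 genes called in mutant non-RGC against mutant RGC, by group (x axis), with 1 point per library and a line at the mean of 3. Nrp2 lies between 191 and 283 in mutant non-RGC and between 693 and 732 in mutant RGC, and Sema3e between 112 and 189.8 against 396 to 707.

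The 2 comparisons crossed as follows. Of the 9 genes lower in mutant RGC, 3 were also lower in mutant non-RGC (Sema4f, Sema6a and Nrp2), and 6 were not called there. The 5 genes higher in mutant RGC were not called in mutant non-RGC. Of all genes tested between the fractions, 12% were lower and 5.07% higher, but the share called in both comparisons was not counted. Because the comparisons share the mutant RGC libraries, the crossed counts only describe these genes. Between the fractions, the 6 genes lower in mutant RGC only had log2 fold changes below 0. Sema6b was at -0.38 (interval -0.72 to -0.05), Sema6c at -0.36 (-0.67 to -0.05) and Sema7a at -0.35 (-0.70 to 0.0008). Plxna3 was at -0.16 and Sema4a at -0.11. Sema4g was nearest to 0, with levels of 1388, 1972 and 2076 in mutant RGC and 1852, 1766 and 1680.2 in mutant non-RGC. Its log2 fold change was -0.02, with an interval from -0.38 to 0.35. Sema5a likewise had mutant non-RGC levels of 2257, 2329.8 and 2274, inside the range of mutant RGC (log2 fold change 0.01, interval -0.25 to 0.26). Sema4d was at 2530.5, 2647 and 2225 and Plxnb2 at 4255, 4574 and 4927 in mutant non-RGC, with intervals of the log2 fold change from -0.05 to 0.35 and from -0.20 to 0.19. The intervals of Sema4g, Sema5a, Sema4d and Plxnb2 leave room for modest differences in either direction. Sema5b was at 1895, 2148 and 2451 in mutant non-RGC, with a log2 fold change of 0.36 (SE 0.14, adjusted p = 0.125 by limma).

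Set in order of their group means, 17 of the 31 genes ran from WT RGC down through mutant RGC to mutant non-RGC (34.5% of the 15256 genes that averaged 10 or more counts across the 9 libraries), and 5 ran the opposite way (34.5%). On the scale of the 9 libraries, 7 genes kept the downward order without overlap, namely Sema3e, Sema4f, Sema6a, Sema6c, Sema6d, Plxna1 and Nrp2. In them every WT library lay above every mutant RGC library and every mutant RGC library above every mutant non-RGC library. Of all genes, 12.8% had that order on the same scale. Means for Nrp2 were 1486 ± 428, 719 ± 22.2 and 231 ± 47.0 (SD, n = 3 each). For Sema3e they were 1102 ± 263, 580.0 ± 163 and 153 ± 39.0 (SD, n = 3 each). For Sema4f they were 630.3 ± 121, 325 ± 88.6 and 122 ± 33.2 (SD, n = 3 each). The ganglion marker sum given above was separated between the groups in the same order, and its part in these steps was not tested. Sema6c was at 1266, 1321 and 1055 in mutant non-RGC, just below mutant RGC library 1 at 1323. With the authors' size factors for that comparison, the Sema6c groups overlapped. Its difference between the fractions was not called (limma adjusted p = 0.108). Plxnc1, the Sema7a receptor, was at 1474, 1610.0 and 1563 in mutant RGC and at 1338, 1346 and 1133 in mutant non-RGC, separated but not called (limma adjusted p = 0.0664). Plxnb1 was at 4503, 4013 and 4231 against 4596, 4913 and 4705, the 1 gene higher in all unbound libraries (limma adjusted p = 0.101). Counts of Plxnb1 could include reads of the overlapping gene Gm7628, which had at most 156 reads in a library.

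**Figure D5:**
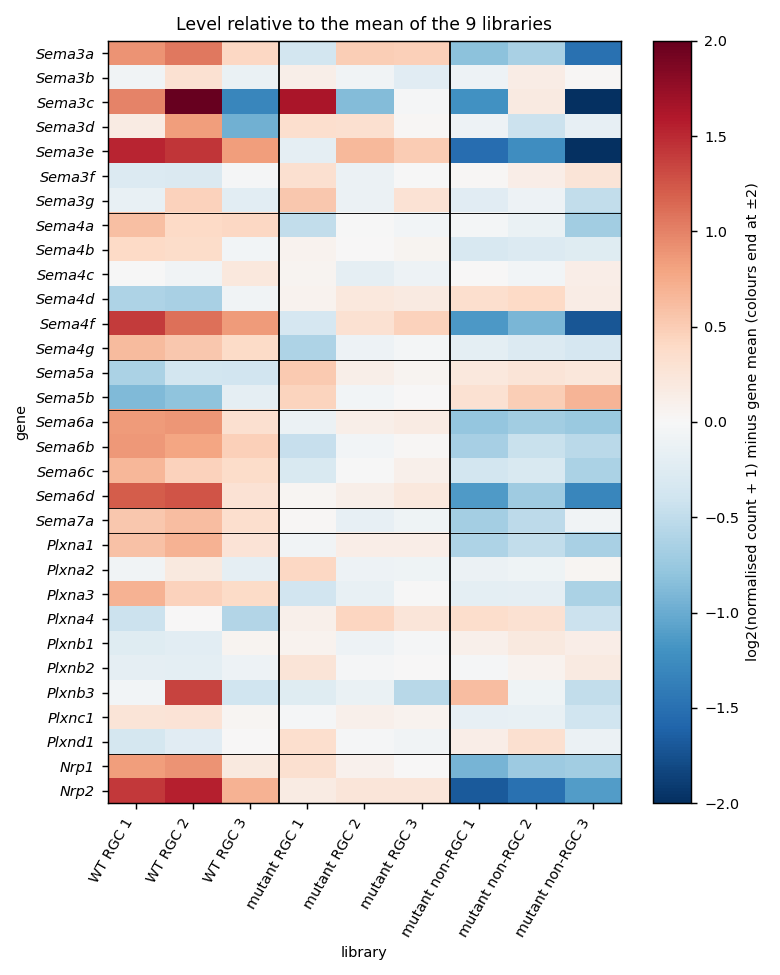
Log2(normalised read count + 1) of each of the 31 genes (rows) in each of the 9 libraries (columns), minus the mean of the gene over the libraries, with red above and blue below that mean and colours ending at 2 in either direction. The class 6 semaphorins and Nrp2 go from high in WT RGC to low in mutant non-RGC, and WT library 3 lies nearer to the mutant columns than its fellow WT libraries do for several of them.

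The genes lie on many chromosomes. Sema3a, Sema3c, Sema3d and Sema3e share a stretch of chromosome 5 from 12383161 to 17730268 (GRCm38.p6). Within it, Sema3a and Sema3e had lower levels in mutant non-RGC, whereas Sema3c and Sema3d were at or below 238 counts in every library and were not called. Nrp2 spans 62703317 to 62818692 on chromosome 1, and Sema5a spans 32244813 to 32696341 on chromosome 15. RefSeq places another gene over 15 of the 31, Plxna4os1 over Plxna4 among them, and whether reads were counted by strand is not stated in the sources at hand. Reads of such pairs could therefore be mixed.

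Other genes of semaphorin signalling were taken from a list of 65 co-receptors and effectors, of which 63 were tested. In mutant RGC 5 were higher and 12 lower, beside 13.7% and 12.3% of all genes. Their median log2 fold change was -0.09. In mutant non-RGC 0 were higher and 16 lower by limma (0 and 25 at an unadjusted p under 0.05, 0 and 16 with voom weights), beside 5.07% and 12% of all genes by limma, and the median was -0.19. With 1 library left out at a time, 0 to 7 were higher and 0 to 21 lower in mutant RGC, and 2 to 26 lower in mutant non-RGC. Chl1, a cell adhesion molecule that links neuropilin-1 to the cytoskeleton, was at 2406, 2480.4 and 1385 in WT RGC and at 501, 993 and 1009.4 in mutant RGC (log2 fold change -1.31, SE 0.34, limma adjusted p = 0.0384). It was at 163, 244 and 40.1 in mutant non-RGC, lower again (log2 fold change -2.75, SE 0.64, limma adjusted p = 0.0273). Rnd1, a small GTPase that binds plexins, fell from 166 ± 45.0 to 66.4 ± 20.8 (SD, n = 3 each). Rhof fell from 272 ± 110 and Farp1, a guanine nucleotide exchange factor, from 2843 ± 534 in WT RGC to 109 ± 14.3 and 1739 ± 275 in mutant RGC (SD, n = 3 each). The receptor tyrosine kinases Met and Erbb2, which can pair with B-type plexins, rose. Met went from 145 ± 26.5 to 320.0 ± 64.5 and Erbb2 from 235 ± 83.2 to 418 ± 9.40 (SD, n = 3 each). In mutant non-RGC, L1cam, the adhesion partner of neuropilin-1 in Sema3a responses, was at 1297, 1628 and 1036 against 2959, 4116 and 4138 in mutant RGC (log2 fold change -1.51, SE 0.20, limma adjusted p = 0.0074). Dpysl5, one of the collapsin response mediator proteins downstream of Sema3a, fell by 0.87 on the log2 scale, the kinase Pak1 by 0.57 and the syndecan Sdc3 by 0.47. Trem2, a microglial receptor for Sema6d with plexin A1, was at 257, 70.0 and 63.3 in mutant RGC and at 0, 0.968 and 0 in mutant non-RGC, beside the fall of all 16 microglial genes given above.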

How the data were processed

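Poly(A) RNA from bead-separated newborn retina was sequenced as single reads. The submitters' processing notes name mm10 as the build and STAR 2.3, DESeq, featureCounts and FastQC as tools. The authors deposited 2 tables of comparisons. Per the file headers, each gives a mean signal per group (read counts divided by size factors), the fold as a ratio, its log2 value, a p-value and an adjusted p-value. No per-library value is listed. Whole read counts of each library were recovered from the group means, which are given to many digits. The size factors of the authors were inferred from the smallest positive means and refined on genes with low means. A set of 3 counts was accepted when the last lay within 1e-09 of a whole number. The next best set had to lie more than 10 times further off. Between 99.94% and 100% of genes came out, and the mutant RGC counts recovered from both tables were identical for 23953 of 23953 genes. Libraries have no labels of their own and were numbered by falling size factor. Counts were divided by the size factors of the authors, and log2(value + 1) was tested with limma 3.58.1 (trend) in R 4.3.3 for genes with a mean of at least 10, two-sided, with Benjamini-Hochberg adjustment and a threshold of 0.05. Log2 fold changes are on that scale and understate the change of low genes. The script was tested on simulated data. Levels were placed on 1 scale over 9 libraries by median-of-ratios size factors. Intervals come from the spread between libraries. Every called or separated gene with a mean of at least 50 in a group is given by library, for the groups of that comparison. Up to 6 called genes of the signalling list per comparison are given by size of change. The members, lists and tests were chosen with earlier results of these data known. Alternatives covered pseudocounts of 0.5 and 4, other filters and scalings, voom weights, a fit of all 9 libraries, the authors' deposited p-values and leaving out each library. Promoter windows came from RefSeq on GRCm38.p6.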

Additional observations from a re-analysis of the deposited data

How the results depend on the processing

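Pseudocounts, a filter at a mean of 50, and the settings not named below left each count of calls within 1.5 times its value. In mutant RGC against WT RGC, the authors' deposited table called 1381 genes higher. Members called higher numbered 3 both with no filter on low values and in the fit of all 9 libraries. Genes of the signalling list called higher numbered 3 with no filter, under upper-quartile scaling and in the authors' deposited table, and those called lower 22 in the fit of all 9 libraries. Plxnb2 lost its call with no filter, under upper-quartile scaling, in the fit of all 9 libraries and in the authors' deposited table, and Plxna4 with no filter and in the fit of all 9 libraries. The cause was not tested. In mutant non-RGC against mutant RGC, genes called higher numbered 1471 under total-count scaling, 448 in the fit of all 9 libraries and 295 in the authors' deposited table. Members called higher numbered 1 under total-count scaling, and genes of the signalling list called lower 10 in the authors' deposited table. With 1 library left out at a time, the mutant RGC comparison gave 2 to 3383 genes higher, 1 to 3095 lower, 0 to 6 members higher, 0 to 14 lower, 0 to 7 genes of the signalling list higher and 0 to 21 lower. The comparison of fractions gave 44 to 1031 genes higher, 394 to 2361 lower, 0 to 2 members higher, 6 to 12 lower and 2 to 26 genes of the signalling list lower. In these fits the group reduced to 2 libraries shares 1 estimate of the spread with the other group.

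Log2 fold changes that turned sign were all of genes not called. Between fractions, Sema4g came to 0.011 under upper-quartile and 0.050 under total-count scaling, Plxnb2 to 0.020 and 0.059, and Sema5a to -0.0069 in the authors' deposited table. With a library left out, log2 fold changes between fractions ran from -0.013 to 0.19 for Sema3f, from -0.27 to 0.10 for Sema4a, from -0.21 to 0.097 for Sema4g, from -0.078 to 0.14 for Sema5a, from -0.22 to 0.026 for Plxna2, from -0.32 to 0.072 for Plxna4, from -0.058 to 0.066 for Plxnb2 and from -0.076 to 0.15 for Plxnd1. In mutant RGC against WT RGC they ran from -0.14 to 0.078 for Sema3b, from -1.55 to 0.43 for Sema3c, from -0.24 to 0.66 for Sema3d and from -0.022 to 0.23 for Plxna2. No paired analysis was possible because the recovered libraries carry no sample numbers.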
